A study of Mus musculus with 18 samples.

Results

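Tumors differed in how strongly they expressed genes that cells switch on in response to interferon. This account sets the 6 tumors in which 4 such genes were highest against the 6 in which they were lowest, out of 18 sequenced tumors, whatever the treatment. The tumors were chosen by a score that is the mean log2(FPKM + 1) of Ifit1, which binds foreign RNA, its partner Ifit3, Isg15, a ubiquitin-like protein that is attached to other proteins, and Irf7, a transcription factor that amplifies the interferon response. FPKM is the number of sequenced fragments per kilobase of gene and per 1000000 fragments assigned to genes. Since measured values of these libraries formed the sides, every difference between them is a description with no p value, and the 4 scoring genes are left out of the results.

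All 18 tumors were B16F10 melanomas, a mouse melanoma cell line, grown under the flank skin of C57BL/6 females from injected cells, for which the labels give 100000 and the study's methods another number. From day 6, at a volume of about 50 mm3, they were injected every 2 days, and they were collected 48 h after the last injection. The control group received PBS. Free PS473 is a catalytic RNA (a Pistol ribozyme) directed at the mRNA of Cd274, the gene of the checkpoint ligand PD-L1. PS473@CPs is the same ribozyme with cationic polymers. In PS473@NKMOF-101-[Mn] the ribozyme sits inside a manganese metal-organic framework. NKMOF-101-[Mn] is the empty framework, and M5@NKMOF-101-[Mn] carries M5, a mutant ribozyme without catalytic activity. Each of the 6 treatments is represented by 3 tumors. The sample titles of the PS473@NKMOF-101-[Mn] tumors carry another framework number than their protocol text, which was followed here.

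Interferons are secreted proteins that signal through receptors on nearly all cells. Type I interferons (alpha and beta) act through a complex that holds STAT2 and IRF9 and binds a DNA element called ISRE, and interferon gamma, made mostly by T and NK cells, acts through a second element called GAS. The genes switched on include antiviral proteins, GTPases that attack the membranes around intracellular microbes, and the machinery that shows peptides to T cells.

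The highest score belonged to PS473@NKMOF-101-[Mn] tumor 2, at 5.23, followed by PS473@CPs tumor 3 at 4.71. M5@NKMOF-101-[Mn] tumors 1, 3 and 2 scored 3.98, 3.90 and 3.78, and PBS tumor 1 scored 3.85, which completes the interferon-high side. All 3 M5@NKMOF-101-[Mn] tumors were therefore on this side, and the other 3 came from 3 different treatments. The interferon-low side held PS473@CPs tumor 1 at 3.20, PBS tumor 2 at 3.13, PBS tumor 3 at 3.09, Free PS473 tumor 1 at 3.08, NKMOF-101-[Mn] tumor 2 at 3.01 and Free PS473 tumor 2 at 1.89. Treatments thus fell unevenly, with 0 tumors of M5@NKMOF-101-[Mn] or of PS473@NKMOF-101-[Mn] on the low side and 0 of Free PS473 or of the empty framework on the high side, while PBS and PS473@CPs stood on both. This placement depended on the scoring. M5@NKMOF-101-[Mn] tumor 2 left the high side without Ifit1, without Ifit3 or with upper-quartile scaling of the libraries. Without Irf7, NKMOF-101-[Mn] tumor 3 took the place of M5@NKMOF-101-[Mn] tumor 3. Without Isg15, PBS tumor 1 left the high side and PS473@CPs tumor 1 the low side. For the M5@NKMOF-101-[Mn] tumors, the contribution of the treatment and of the interferon state to a difference between the sides cannot be told apart.

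The limits of the sides were not gaps in the data. The last high tumor scored 3.78 and the first tumor outside it, NKMOF-101-[Mn] tumor 3, scored 3.71. At the other end, Free PS473 tumor 3 at 3.30 stood just outside the low side and PS473@CPs tumor 1 at 3.20 just inside. Within a treatment the 3 tumors spread widely, from 3.54 to 5.23 for PS473@NKMOF-101-[Mn] and from 1.89 to 3.30 for Free PS473, and 56.6% of the sum of squares of the score lay within treatments. The plot of the score by tumor shows this spread, in which the top pair and the last tumor stood farther from their neighbors than any other tumors did.

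**Figure D1:**
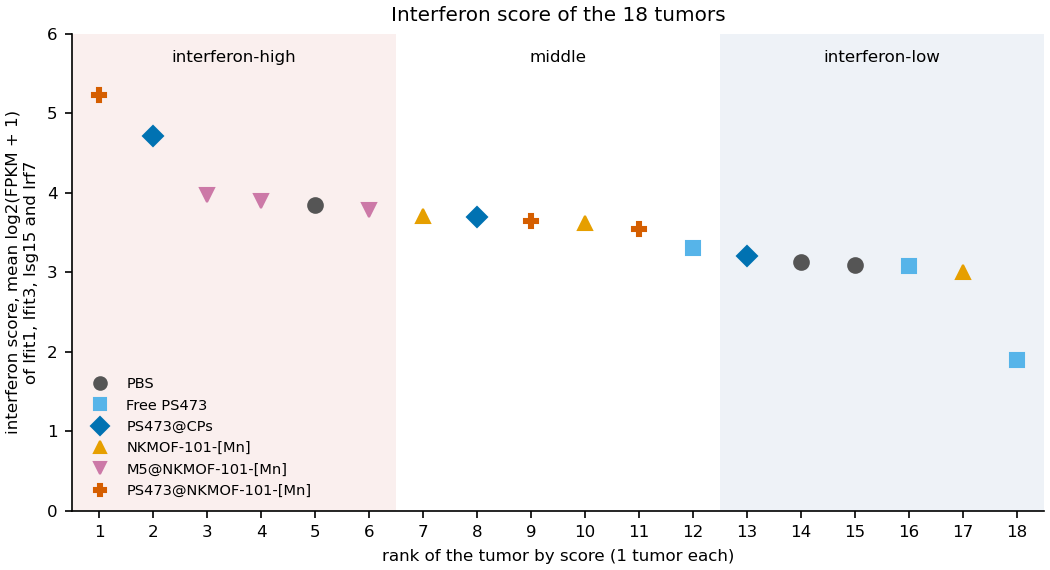
Interferon score (mean log2(FPKM + 1) of Ifit1, Ifit3, Isg15 and Irf7, vertical axis) of each of the 18 tumors in order of rank (horizontal axis), with the symbol and color giving the treatment and the shaded bands the 6 highest and 6 lowest. The highest tumor scored 5.23, the lowest 1.89, and the tumors next to the band limits differed from their neighbors by 0.064 and 0.10.

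Facts of the libraries that touch these results are few. The fragments assigned to genes numbered 17212000 to 28401000 in the high tumors and 19504000 to 25653000 in the low tumors, so that depth overlapped. All 16 melanoma markers listed were above 0 in each of the 12 tumors, with melanoma scores of 6.66 to 6.95 in the high and 6.52 to 6.82 in the low tumors. Markers of skin epithelium, a sign of skin in the tumor piece, had a score above 1 in 3 high and 2 low tumors. These tissue pieces are bulk samples, in which fewer cells of a type and less RNA per cell cannot be told apart.

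Promoter stretches of some members are shown first so that the letters of both interferon elements can be seen. The sequences are those of RefSeq for build GRCm38.p6, and the 250 bases before the start of each gene were searched on both strands for ISRE, written as GAAANNGAAA or TTTCNNTTTC, and for GAS, written as TTCNNNGAA. In 5 of the higher genes, all immunity-related GTPases, a GAS is followed by an ISRE with 2 bases between them, and 4 of these stretches follow, 5′ to 3′ on the strand of the gene, with the bases that match an element in capitals.
Igtp, chr11:58199491-58199551, plus strand: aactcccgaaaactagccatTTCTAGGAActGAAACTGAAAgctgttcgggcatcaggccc
Irgm2, chr11:58214882-58214942, plus strand: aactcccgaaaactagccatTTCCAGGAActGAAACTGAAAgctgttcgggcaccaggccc
Tgtp1, chr11:48992294-48992354, minus strand: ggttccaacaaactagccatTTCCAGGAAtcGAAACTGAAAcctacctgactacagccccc
Tgtp2, chr11:49064253-49064313, minus strand: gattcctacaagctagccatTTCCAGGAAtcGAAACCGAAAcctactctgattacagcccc
The fifth is Gm12185, and the flanks of these family members are alike, so they are not independent examples. A GAS and an ISRE at most 5 bases apart were found in 7 genes of the 27025 in the table, the others being Bst2 and Gm32670.

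The next sequences show members with other arrangements. Gbp2 and Apol9a hold ISRE matches only, overlapping in Apol9a, and Irf1 and Psmb8 hold a GAS only.
Gbp2, chr3:142620584-142620633, plus strand: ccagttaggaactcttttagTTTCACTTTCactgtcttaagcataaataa
Apol9a, chr15:77411104-77411159, minus strand: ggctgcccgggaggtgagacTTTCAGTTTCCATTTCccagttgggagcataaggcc
Irf1, chr11:53769904-53769952, plus strand: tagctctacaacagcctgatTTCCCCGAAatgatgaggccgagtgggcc
Psmb8, chr17:34198078-34198126, plus strand: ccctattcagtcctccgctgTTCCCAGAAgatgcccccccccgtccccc
A match is a description of the letters and not evidence of binding.

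Of the 12353 genes whose mean over the 18 tumors reached 1 FPKM, 141 were higher in every interferon-high tumor than in every interferon-low tumor, which is 1.14% of the genes tested. In the other direction, 93 genes (0.753%) were lower in every high tumor. Size separated these sets more than number did. A difference above 1 on the log2 scale was reached by 34 of the 141 (0.275% of the genes tested) and a difference below -1 by 1 of the 93 (0.0081%), and their median differences were 0.66 and -0.25 beside -0.022 over all genes tested. With upper-quartile scaling of the libraries, which exchanged 1 high tumor for another, the counts became 226 higher and 25 lower, and with quantile normalization 180 and 61.

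Named interferon-response genes made up a large part of the higher set. The rule ranked the tumors on 4 genes of this response, so other members that vary with them were likely to be apart. The lists were also chosen with earlier results of these data known, so the shares below are a description only. The 9 lists that follow the response from interferons and receptors to checkpoints hold 166 tested genes, of which 56 (33.7%) were among the 141 and 0 among the 93. Seen from the other side, 39.7% of the 141 were on these lists, as were 29 of the 34 with a difference above 1. ISRE matches were found in the promoter windows of 25.2% of the 107 higher genes that have one, beside 3.12% of the 9210 tested genes with a window, 2.98% of all 32851 windows in the table and 2.63% of the 76 lower genes. GAS matches were found in 13.1%, 7.00%, 7.02% and 6.58% of the same sets. Both elements were most frequent among the GTPases, with an ISRE in 10 and a GAS in 7 of the 11 that have a window.

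**Figure D2:**
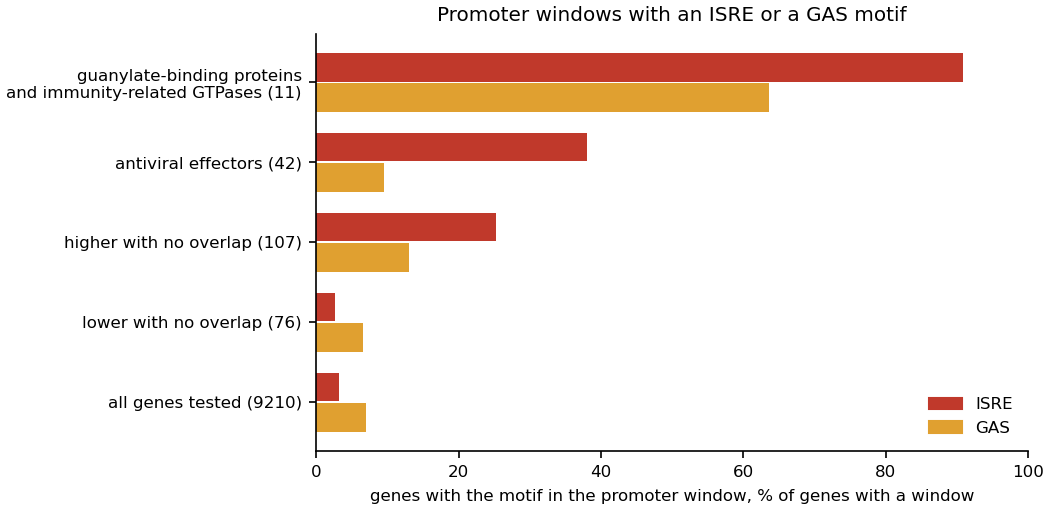
Share of genes (horizontal axis, percent of the genes with a promoter window, number in parentheses) that hold an ISRE (red) or a GAS (yellow) in the 250 bases before their start. ISRE was found in 90.9% of 11 GTPases, 38.1% of 42 antiviral effectors and 25.2% of 107 higher genes, beside 3.12% of all 9210 tested genes with a window.

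The interferons themselves were barely measured. Of 21 interferon genes listed, 12 were at 0 in all 18 tumors and 0 reached the mean of 1 FPKM needed for the comparison. Ifng, the gene of interferon gamma, had the highest value of any, 1.38 FPKM. It ran from 0.0825 to 1.38 FPKM with a median of 0.252 in the high tumors and from 0.103 to 0.369 with a median of 0.16 in the low tumors. Ifnb1, the gene of interferon beta, ran from 0 to 0.21 FPKM in the high and from 0 to 0.0613 in the low tumors. Both genes overlapped between the sides.

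Receptor genes were at similar levels on both sides. Ifnar2, a chain of the type I receptor, ran from 3.46 to 4.34 FPKM with a median of 3.98 in the high tumors and from 3.05 to 3.92 with a median of 3.15 in the low tumors, a difference of 0.22 ± 0.06 (SE) on the log2 scale with overlap. Ifngr1, the ligand-binding chain for interferon gamma, had medians of 9.36 and 9.93 FPKM and a difference of -0.09 ± 0.10. The 5 tested receptor genes had a median difference of 0.10, and 0 of them separated the sides.

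Transducers of the signal divided into members that separated the sides and members that did not. Irf1, a transcription factor induced by interferon gamma and the carrier of the GAS shown above, ran from 18.6 to 40.9 FPKM (median 23.6) in the high tumors and from 7.78 to 15.8 (median 14.1) in the low tumors, a difference of 0.99 ± 0.24 with no overlap.

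STAT2 and IRF9, of the ISRE-binding complex, followed with smaller differences. Stat2 ran from 10.4 to 26.5 FPKM (median 12.9) against 7.10 to 9.48 (median 8.09), a difference of 0.73 ± 0.20. Irf9 ran from 15.3 to 24.8 FPKM (median 16.3) against 8.06 to 14.3 (median 12.2), a difference of 0.58 ± 0.15. Both had no overlap. Usp18, which removes ISG15 and dampens receptor signaling, had a larger difference of 1.21 ± 0.33, but its lowest high value of 9.81 FPKM lay below the highest low value of 10.1. Over the 19 transducers and brakes tested, 16 differences were positive, and the median was 0.24.

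Sensors of nucleic acids were led by Zbp1, which detects left-handed DNA and RNA and can start necroptosis, and which had the largest difference of all genes without overlap. It ran from 12.4 to 42.7 FPKM with a median of 15.8 in the high tumors and from 1.35 to 7.78 with a median of 5.84 in the low tumors, and the 6 middle tumors, at 9.12 to 13.0, lay above every low tumor and overlapped the lowest high values. Its difference was 1.90 ± 0.42. The highest value belonged to PS473@NKMOF-101-[Mn] tumor 2 and the lowest 2 values to the Free PS473 tumors. Dhx58, a regulator of RNA sensing, had medians of 8.85 and 4.54 FPKM and a difference of 1.11 ± 0.26, and Rigi, the sensor of viral RNA ends, medians of 7.14 and 4.04 and a difference of 0.84 ± 0.21. Both had no overlap, as did 4 of the 21 tested sensors and adaptors, whose median was 0.39. Ifi211 and Ifi204, members of the Ifi200 family, differed by 1.18 ± 0.26 and 1.07 ± 0.35 with overlap.

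Antiviral effectors were the list with the most members apart. Of 55 tested, 22 had no overlap, 54 had a positive difference and the median was 0.83. Ube2l6, the enzyme that passes ISG15 to its targets, ran from 49.1 to 95.4 FPKM (median 56.2) in the high tumors and from 15.2 to 39.2 (median 24.9) in the low tumors, a difference of 1.29 ± 0.24 with no overlap. Uba7, which activates ISG15 for the same pathway, ran from 9.75 to 22.1 FPKM (median 11.8) against 3.501 to 7.402 (median 6.10), a difference of 1.16 ± 0.22, also with no overlap. Oasl2, of the oligoadenylate synthetase family, had medians of 6.97 and 3.13 FPKM and a difference of 1.36 ± 0.33.

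Rsad2, or viperin, which makes a chain-terminating nucleotide, ran from 18.97 to 40.5 FPKM (median 21.4) in the high tumors and from 6.63 to 16.1 (median 10.5) in the low tumors. Its difference was 1.07 ± 0.22, and it is an exception to the order of the low side, since Free PS473 tumor 1 had the highest low value, 16.1. Apol9b and Apol9a differed by 1.73 ± 0.35 and 1.54 ± 0.33, with medians of 21.9 and 18.8 FPKM in the high and 7.98 and 7.48 in the low tumors. Apol9a and Apol9b are near-identical copies, whose reads the counting could have split between them, and the same uncertainty holds for Tgtp1 with Tgtp2, Iigp1 with Iigp1c, the Oas1 genes and Ifit3b, a copy of the scoring gene Ifit3. Ifit3b was counted among the 141 higher genes, although its values may hold reads of a gene that formed the sides. Mx1, Bst2 and Ifitm3, well-known restriction factors, differed by 0.77 ± 0.27, 0.86 ± 0.21 and 0.99 ± 0.25, each with overlap.

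The guanylate-binding proteins and immunity-related GTPases separated the sides most completely. Of 16 tested, 14 had no overlap, all 16 were higher on average, 15 by more than 1, and the median was 1.51. Iigp1, which attacks the vacuoles of parasites, ran from 25.3 to 95.5 FPKM (median 38.1) in the high tumors and from 3.97 to 19.2 (median 15.54) in the low tumors, a difference of 1.76 ± 0.45. Igtp, a regulatory member, ran from 45.6 to 155 FPKM (median 71.5) against 10.5 to 38.5 (median 29.8), a difference of 1.61 ± 0.39. In both genes the Free PS473 tumors gave the lowest 2 of the low values, and PS473@NKMOF-101-[Mn] tumor 2 gave the highest value by a wide margin.

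Gbp2, a guanylate-binding protein that helps to open pathogen vacuoles, ran from 39.5 to 119 FPKM (median 60.6) in the high tumors and from 8.64 to 33.4 (median 25.0) in the low tumors, a difference of 1.51 ± 0.39. Irgm2, whose promoter stretch is printed above, ran from 19.8 to 67.3 FPKM (median 31.2) against 5.89 to 15.4 (median 12.8), a difference of 1.56 ± 0.33. Tgtp1 ran from 19.1 to 62.4 FPKM (median 26.6) against 2.47 to 12.3 (median 9.76), a difference of 1.73 ± 0.39. Neither these nor Gm12250, Gbp4, Gbp6, Tgtp2, Gbp3, Ifi47, Gbp10, Gm12185 and Gbp7, which differed by 1.30 to 1.70, had any overlap.

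By tumor, the mean log2(FPKM + 1) of the tested GTPases ran from 3.82 in PBS tumor 1 to 5.42 in PS473@NKMOF-101-[Mn] tumor 2 on the high side and from 2.08 to 3.46 on the low side. The order of this list did not follow the score throughout. Free PS473 tumor 1 was at 2.08, below Free PS473 tumor 2 at 2.32, although its interferon score of 3.08 was far above 1.89 and close to that of PBS tumor 3, where the GTPases stood at 3.46. Without the Free PS473 tumors of the low side the list median was 1.12 in place of 1.51, and without the tumors whose skin score was above 1 it was 1.43.

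**Figure D3:**
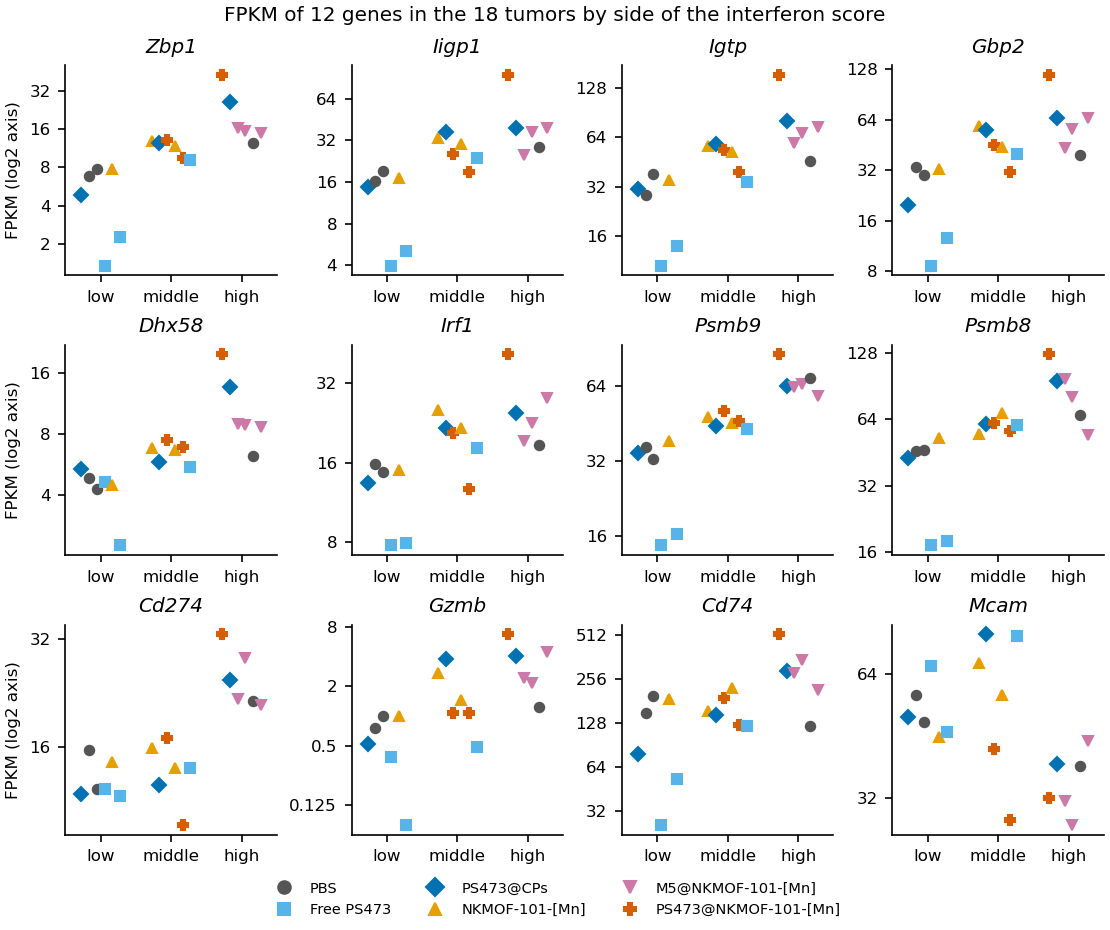
FPKM (vertical axes, log2 scale) of 12 genes in the 6 interferon-low, 6 middle and 6 interferon-high tumors, 1 symbol per tumor, with symbol and color giving the treatment. Zbp1, Iigp1, Igtp, Gbp2, Dhx58, Irf1, Psmb9, Psmb8, Cd274 and Gzmb were higher in every high than in every low tumor, Cd74 overlapped, and Mcam was lower in every high tumor, at 27.5 to 44.0 against 45.1 to 67.3 FPKM.

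MHC class I presentation, which shows peptides from inside the cell to CD8 T cells, had 10 of 22 tested genes with no overlap, 21 with a positive difference and a median of 0.79. The inducible proteasome subunits led. Psmb9 ran from 58.9 to 86.2 FPKM (median 64.8) in the high tumors and from 14.6 to 38.6 (median 33.4) in the low tumors, a difference of 1.29 ± 0.26. Psmb8 ran from 54.2 to 126 FPKM (median 88.0) against 17.2 to 52.6 (median 44.5), a difference of 1.28 ± 0.34, and Psmb10 had medians of 72.2 and 43.0 with a difference of 0.96 ± 0.21. For Psmb9 the 6 middle tumors, at 43.2 to 51.0 FPKM, filled the space between the sides without touching either.

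Peptide transport and the MHC proteins followed. Tap1, a subunit of the peptide transporter, ran from 47.0 to 95.2 FPKM (median 60.6) against 19.6 to 41.8 (median 34.6), a difference of 0.99 ± 0.24 with no overlap. B2m, the light chain of every class I molecule, ran from 1687 to 2779 FPKM in the high tumors and from 850.3 to 1685 in the low tumors, a difference of 0.66 ± 0.19 with no overlap but a narrow gap. The classical heavy chain genes H2-K1 and H2-D1 overlapped, with differences of 0.80 ± 0.33 and 0.68 ± 0.20, and H2-T23, a nonclassical gene, differed by 1.14 ± 0.45 with overlap.

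MHC class II presentation, the route used by dendritic cells, macrophages and B cells, had a median of 0.88, but 1 of its 9 tested genes had no overlap. Cd74, the invariant chain, ran from 122 to 518 FPKM (median 285) in the high tumors and from 25.6 to 196 (median 114) in the low tumors, a difference of 1.54 ± 0.55. The overlap came from PBS tumor 1, the lowest of the high side at 122, below PBS tumor 3 at 196 and other low tumors. H2-Aa, H2-Ab1 and H2-Eb1 differed by 1.38 ± 0.45, 1.37 ± 0.45 and 1.33 ± 0.49 with overlap, and the member without overlap, H2-DMa, by 0.74 ± 0.16.

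Chemokines that attract immune cells were higher on average with overlap throughout, 11 of 12 with a positive difference and a median of 0.45. Cxcl9, which draws T cells and is induced by interferon gamma, ran from 4.76 to 15.9 FPKM (median 10.8) in the high tumors and from 1.53 to 7.11 (median 4.24) in the low tumors. Its difference was 1.12 ± 0.38, and the middle tumors reached 19.96 FPKM, above every high tumor. Ccl4 and Ccl7 differed by 0.90 ± 0.30 and 0.88 ± 0.28.

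Cd274, the PD-L1 gene at whose mRNA the ribozyme is directed, was among the 141. It ran from 21.0 to 32.9 FPKM with a median of 23.2 in the high tumors and from 11.7 to 15.7 with a median of 12.3 in the low tumors, a difference of 0.87 ± 0.12. The 6 middle tumors ran from 9.74 to 17.0 FPKM and thus lay with the low side. The highest value of all 18, 32.9 FPKM, was in PS473@NKMOF-101-[Mn] tumor 2, and the lowest, 9.74, was in tumor 3 of the same treatment. With upper-quartile scaling of the libraries this tumor 3 stood on the high side, although its unscaled 9.74 FPKM lies below every low tumor. The separation of Cd274 therefore depends on which tumors are taken as high. The highest-scoring tumor of a treatment had more Cd274 than the lowest-scoring one in 6 of 6 treatments, and 138 (1.12%) of the genes tested were higher in all 6. For PBS and PS473@CPs the direction was fixed in advance, because the pair set a high against a low tumor. The other 6 tested checkpoint genes had overlap, with differences from -0.04 to 0.47.

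Among the genes of cell death, Mlkl, the executor of necroptosis, ran from 7.49 to 10.6 FPKM (median 8.02) in the high tumors and from 3.92 to 5.54 (median 5.22) in the low tumors, a difference of 0.68 ± 0.10 with no overlap. Gsdmd, which forms the pores of pyroptosis, ran from 3.81 to 5.71 FPKM (median 4.27) against 1.53 to 3.32 (median 2.77), a difference of 0.65 ± 0.15 with no overlap. Casp1 and Casp4, the caspases that cut it, differed by 0.79 ± 0.21 and 0.60 ± 0.17 with overlap. The list as a whole had a median of 0.16 over 14 tested genes. C4b, a complement component, differed by 1.11 ± 0.23 with overlap, and 1 of 10 complement genes, C2, had none.

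The plot of differences by list shows the contrast between the response lists and the rest. For the 28 lists, non-overlapping genes were found in 10, and 0 of the 28 held a non-overlapping lower gene.

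**Figure D4:**
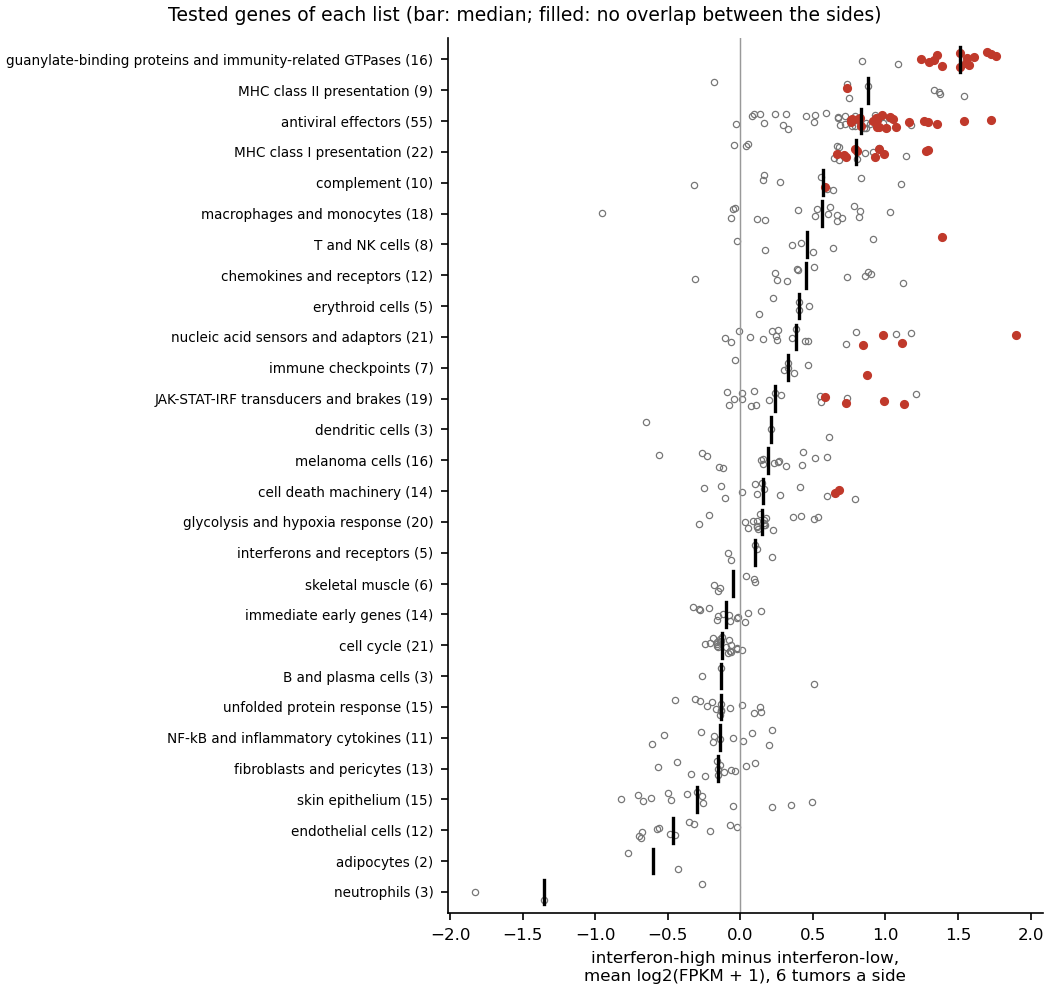
Difference between the sides (horizontal axis, mean log2(FPKM + 1) of 6 interferon-high minus 6 interferon-low tumors) of each tested gene of 28 lists, with the number tested in parentheses, a black bar at the list median and filled red circles for genes with no overlap. The guanylate-binding proteins and immunity-related GTPases stand farthest to the right, with a median of 1.51, and neutrophil markers farthest to the left, with a median of -1.35 over 3 genes.

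Markers of other cell types moved with the score in part, and their part in the differences above was not tested. For T and NK cells, 23 of 24 markers were above 0 in all high tumors and 18 in all low tumors, with summed values of 12.6 to 48.3 FPKM against 5.197 to 21.9. Gzmb, the gene of the cytotoxic protease granzyme B, was the only one of the 8 tested markers without overlap. It ran from 1.22 to 6.81 FPKM (median 3.24) in the high tumors and from 0.0773 to 1.01 (median 0.644) in the low tumors, a difference of 1.39 ± 0.30. Nkg7, Trac and Cd3g, of the granules and the receptor of these cells, differed by 0.91 ± 0.35, 0.64 ± 0.34 and 0.50 ± 0.18 with overlap. Without the Free PS473 tumors of the low side the list median fell from 0.46 to 0.16.

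For macrophages and monocytes, all 20 markers were above 0 in every tumor of both sides, and 0 of the 18 tested separated the sides. Summed values ran from 190.7 to 419.5 FPKM in the high and from 103 to 349 in the low tumors, and the list median was 0.56, or 0.14 without the Free PS473 tumors of the low side. Members did not move as one. Fcgr1, an antibody receptor that interferon gamma induces, and Ly6c2, of inflammatory monocytes, differed by 0.82 ± 0.27 and 1.03 ± 0.45, while Mrc1, a mannose receptor of tissue macrophages, went the other way by -0.95 ± 0.28. Mrc1 ran from 0.836 to 2.82 FPKM (median 1.41) in the high tumors and from 2.19 to 7.47 (median 4.06) in the low tumors, with overlap.

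In the low side, Free PS473 tumors 1 and 2 had the lowest scores for T and NK cells, both 0.56, and for macrophages, 2.32 and 1.93, as they had for the GTPases and for class I and II presentation. The low tumors otherwise ran from 1.00 to 1.48 for T and NK cells, which overlaps the high range of 1.07 to 2.30. On the high side PBS tumor 1 was the reverse case, with GTPases at 3.82, above every low tumor, beside T and NK markers at 1.07 and macrophages at 2.68, within the low range.

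**Figure D5:**
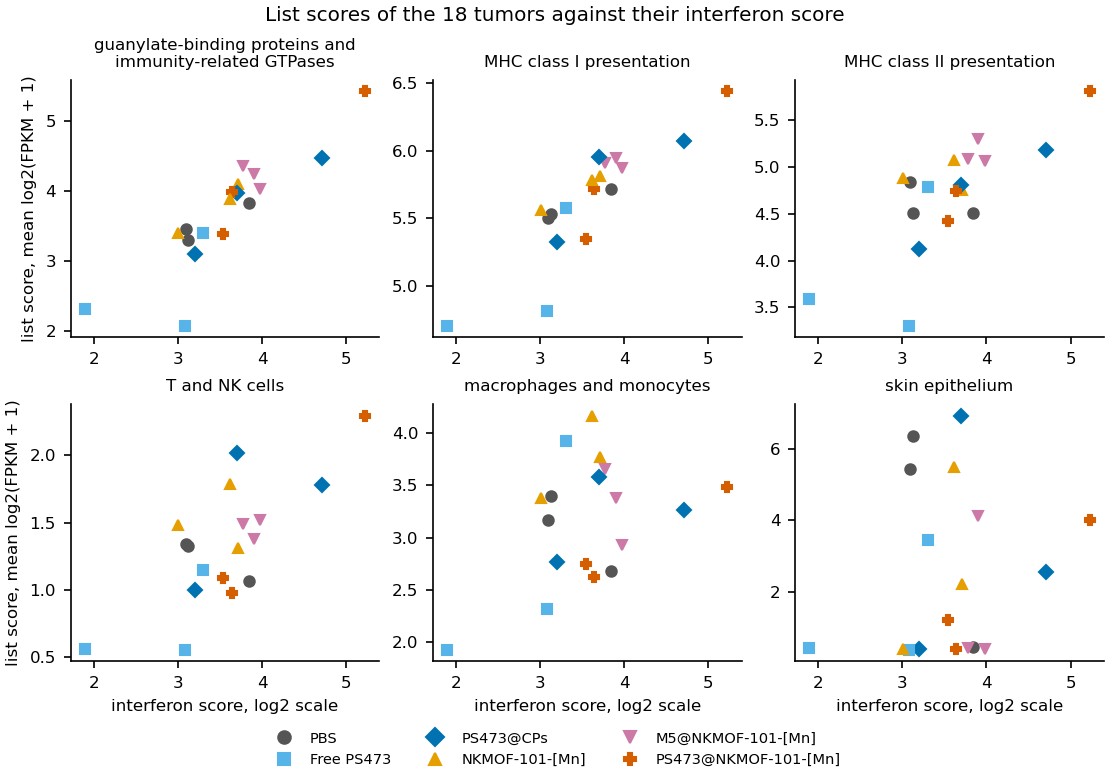
Score of 6 lists (vertical axes, mean log2(FPKM + 1) of the tested genes) against the interferon score (horizontal axis) in the 18 tumors, with symbol and color giving the treatment. GTPases and class I presentation ran from 2.08 to 5.42 and from 4.71 to 6.44 with no overlap between the 6 highest and 6 lowest tumors, while T and NK cells, macrophages and skin epithelium overlapped.

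Other tissues were not apart between the sides. Skin epithelium markers summed to 10.2 to 568 FPKM in the high and 11.9 to 4524 in the low tumors, with 4 and 5 of 20 above 0 in all tumors of a side. Neutrophil markers had a median of -1.35 over 3 tested genes, which rested on PBS tumors 2 and 3 and was 0.50 in the comparison within treatments given below. S100a9, the most affected, had medians of 0.272 and 0.551 FPKM in spite of a difference of -1.83 ± 1.48. Ly6g, the defining neutrophil marker, was at 0 in all 12. Red cell genes had a median of 0.40, with hemoglobin gene Hbb-bs from 22.5 to 6668 FPKM in the high and from 17.3 to 3132 in the low tumors. Endothelial markers, by contrast, leaned one way, since all 12 tested had a negative difference, with a median of -0.47 and overlap in each. Cdh5, the cadherin of vessel walls, had medians of 2.95 FPKM in the high and 4.77 in the low tumors and a difference of -0.70 ± 0.34.

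Cell cycle genes were slightly lower on the high side, 20 of 21 with a negative difference and a median of -0.13, with overlap in each. Rrm2, which makes the building blocks of DNA, ran from 120 to 135 FPKM (median 133) in the high and from 118 to 175 (median 153) in the low tumors, a difference of -0.19 ± 0.09. With upper-quartile scaling the median of this list was -0.018, and in the comparison within treatments given below it was -0.19. The cell cycle score was higher in the highest-scoring than in the lowest-scoring tumor in 0 of 6 treatments. Genes of NF-kB signaling and inflammatory cytokines had a median of -0.14 over 11, a direction that turned to 0.23 in the comparison within treatments given below and to 0.18 without the tumors whose skin score was above 1. Those of glycolysis and hypoxia had a median of 0.15 over 20. In both lists 0 genes were apart.

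The 93 genes that were lower in every high tumor differed by little, and which genes these were depended on the scaling of the libraries. Of the 141 higher genes, 100 stayed apart with upper-quartile scaling, which exchanged 1 high tumor for another, and 129 with quantile normalization. Of the 93 lower genes, 13 and 48 did. The most negative, Gm23344, ran from 0.186 to 4.20 FPKM (median 2.93) in the high and from 4.21 to 9.43 (median 5.48) in the low tumors, a difference of -1.13 ± 0.36, and was as low as 0.18 in a middle tumor. Its listed length is 68 bases, so these values rest on few fragments, and its function is not known here. Mex3b, an RNA-binding protein, ran from 1.94 to 3.39 FPKM against 3.84 to 5.19, a difference of -0.57 ± 0.10. Mcam, a melanoma and vessel adhesion molecule, ran from 27.5 to 44.0 FPKM against 45.1 to 67.3, a difference of -0.56 ± 0.13, while the middle tumors spanned 28.3 to 80.2. Within treatments its mean difference was 0.054, with lower values in 3 of the 6. Among these were PBS and PS473@CPs, where the pair set a high against a low tumor and the direction was fixed in advance. Cth, an enzyme of cysteine synthesis, had medians of 4.12 and 6.22 FPKM and a difference of -0.51 ± 0.06. Reep6, Nes, Tmem158, Rbm38, Adam19 and Adamts20 differed by -0.56 to -0.47.

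Within each treatment, the tumor with the highest score was then set against the one with the lowest, which holds the treatment constant but uses 9 tumors that are also on a side among its 12. In PBS and PS473@CPs the pair set a high against a low tumor, so that the genes apart differed there by construction. The other 4 treatments were therefore counted apart, a choice made after the values were seen. Their pairs were still picked by the score, and 3 of them hold 1 tumor of a side, while both tumors of the M5@NKMOF-101-[Mn] pair are high. Of the 141 higher genes, 42 were higher in all 4, beside 424 (3.43%) of all genes tested, and thus in all 6, beside 138 (1.12%). Of the 93 lower genes, 7 were lower in all 4, beside 257 (2.08%), and thus in all 6, beside 129 (1.04%), and 1 was higher in all 4. Zbp1, Apol9a, Apol9b, Gbp10, Rtp4, Psmb8, Psmb9, Irf9, Cd274, Mlkl and Gsdmd were among those higher in 6 of 6. The pair of M5@NKMOF-101-[Mn] tumors differed in score by only 0.20, and there the GTPase list ran the other way, at 4.02 in the higher-scoring and 4.35 in the lower-scoring tumor. In the other 5 treatments the GTPases were higher by 2.04 for PS473@NKMOF-101-[Mn], 1.37 for PS473@CPs, 1.08 for Free PS473, 0.69 for the empty framework and 0.36 for PBS.

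Some of the higher genes were neighbors on a chromosome, a count that was not set beside one for other sets of genes. By the gene order of RefSeq in GRCm38.p6, 37 of the 138 higher genes that could be placed stood in 15 runs of adjacent tested genes, the longest of which held 4, Gbp7, Gbp3, Gm40158 and Gbp2. Overlapping or neighboring transcripts may share reads, as Gm36043, beside Cd274, could, at 3.78 to 5.27 FPKM in the high and 2.31 to 3.26 in the low tumors.

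The treatment labels allowed a test whose groups the score did not form. A moderated F-test with limma over the 6 treatments, 3 tumors each, called 0 of 12353 genes (0%) at an adjusted p under 0.05 by the Benjamini-Hochberg method, and 244 (1.98%) had an unadjusted p under 0.05. An unadjusted p under 0.05 was found for 28 of the 128 named genes that were tested and for 42 of the 141 higher genes, which were chosen on these same tumors with treatments unevenly spread over the sides. Among the named genes the smallest unadjusted p was 0.00476, and its adjusted p in limma was 1.00. With no filter on expression, 4 of 31282 genes were called. Nothing in the labels says that the tumors of a group came from separate experiments, so p values measure only the spread between these tumors.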

How the data were processed

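Poly(A) RNA of 18 tumors, 3 in each of 6 treatment groups, was sequenced, and the authors deposited FPKM values (fragments per kilobase of gene and per 1000000 fragments assigned to genes) for 41079 genes with a gene length for each, which was deposited beside them. The submitters' processing notes name genome build GRCm39, and the aligner, counter and annotation are not given in the sources used here. Groups were taken from the sample labels. The members and gene lists were chosen with earlier results of these data known.

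Values were transformed to log2(FPKM + 1). The comparison took in 12353 genes, those whose mean over all tumors reached 1 FPKM, leaving out the 4 scoring genes, and 28722 fell below the filter. A gene was counted as apart when its 6 high values all lay above, or all below, its 6 low values. Differences are those of mean log2(FPKM + 1), which understates the change of weakly expressed genes, and their SE is a measure of spread only. List scores are means over the tested genes, and summed values are over all genes of a list found in the file. Depth was recovered from the steps between low FPKM values, and no 2 tumors held the same values.

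The text names the 20 largest and 10 most negative non-overlapping differences, up to 4 genes of each of 28 lists, Cd274, Ifnb1 and Ifng. Genes named beyond these, such as Stat2, Irf9, Rigi, Rsad2, Uba7, Psmb10, B2m, H2-K1, H2-D1, H2-DMa, Mx1, Bst2, Ifitm3, Rtp4, C2 and Gm36043, were chosen after their values were seen. The treatment test was limma 3.58.1 in R 4.3.3 (trend on mean expression, no replicate block, Benjamini-Hochberg), and both procedures were tested on simulated data. Tables were handled in Python 3.11.15 with pandas 2.3.3 and numpy 2.4.6. Same-numbered tumors did not pair: their deviations from the group means correlated from -0.73 to 0.72 over 45 pairs. Promoter windows and gene order came from RefSeq tables of GRCm38.p6 and were matched by symbol only. The result of 1 gene is not reported here.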

Additional observations from a re-analysis of the deposited data

Results flagged for a closer look

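Of 56 sets of 6 tumors examined, the scores of 28 lists on each side, 1 held a tumor far from the others. M5@NKMOF-101-[Mn] tumor 3 had a neutrophil marker score of 2.75 among the interferon-high tumors, where the other 5 ran from 0.332 to 0.768, and its gap to the nearest of them was 0.819 of the whole range, above Dixon's 95% limit for 6 values. The same tumor had a skin epithelium score of 4.13. By chance about 1 in 20 such sets would hold one.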

How the results depend on the processing

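The counts of genes apart, 141 higher and 93 lower, depended on how many tumors were compared. By construction, fewer tumors let more genes through and more tumors fewer: 3 highest against 3 lowest gave 1005 higher and 1192 lower, 9 against 9 gave 10 and 2, and leaving out each tumor gave 150 to 253 higher and 104 to 331 lower, with 253 higher without PBS tumor 1, 214 without M5@NKMOF-101-[Mn] tumor 2, 222 without NKMOF-101-[Mn] tumor 2, and 331 lower without PBS tumor 2, 181 without NKMOF-101-[Mn] tumor 2, 166 without PS473@NKMOF-101-[Mn] tumor 2 and 161 without M5@NKMOF-101-[Mn] tumor 2. The following were added after seeing the data: without the 3 M5@NKMOF-101-[Mn] tumors 311 and 249, without the highest and lowest tumor 190 and 204, without the tumors with a skin score above 1 442 and 840, and without the 2 Free PS473 tumors of the low side 188 and 134. Scores of 3 genes changed 1 or 2 tumors of a side: without Ifit1 or without Ifit3 87 higher, without Isg15 91 higher and 43 lower, without Irf7 32 lower. Upper-quartile scaling gave 226 and 25 and quantile normalization 61 lower; the cause was not tested. The treatment test called 4 genes with no filter and 244 at an unadjusted p, and 0 under the other settings run, including the replicate block, whose call count was 0 as well. Same-numbered tumors of different treatments had a median correlation of -0.019, with 18 of 45 pairs above 0.1, so the numbers were not taken as a pairing. Of 812 list medians recomputed, 794 moved by less than the spread between tumors and 18 moved more. The spread was the standard deviation of the list score within the sides, which was wide for some lists, at 2.04 for neutrophils. A change of sign could thus count as small, as for neutrophils from -1.35 to 0.50 within treatment. Across settings 11 of the 28 lists had medians of either sign, among them NF-kB genes, neutrophils, skin epithelium and red cells, and the lists of antiviral effectors, GTPases and MHC genes stayed positive. Of 3770 values of named genes, 1 changed sign among genes apart: Mcam was 0.054 within treatment. At 17212000 to 28401000 fragments, interferon genes and most T cell markers fell below the filter.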

Other observations

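Some higher genes outside the interferon lists were also apart between the sides, and they were picked after their values were seen. Cited1, a transcriptional regulator known from melanocytes, ran from 45.1 to 78.6 FPKM in the high and from 22.02 to 37.7 in the low tumors, a difference of 0.94 ± 0.16, and Rab38, which carries pigment enzymes to melanosomes, from 177 to 243 against 124 to 174, a difference of 0.38 ± 0.10. Within treatments both were higher in 3 of 6. Among these were PBS and PS473@CPs, where the pair set a high against a low tumor and the direction was fixed in advance. Hpse, the enzyme that cuts heparan sulfate, differed by 0.81 ± 0.17, Cd72, a B cell and myeloid receptor, by 0.81 ± 0.17, Tnfrsf14, a receptor of the TNF family, by 0.65 ± 0.20, Serpinb9, an inhibitor of granzyme B, by 0.66 ± 0.14, and Il18bp, which neutralizes interleukin 18, by 0.53 ± 0.09.

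Among the 93 lower genes, Ccng1, Zmat3, Rbm38 and Gtse1 are each known to respond to p53, and they too were picked after their values were seen, with no p53 list compared. Ccng1, cyclin G1, ran from 23.1 to 29.95 FPKM in the high and from 31.6 to 52.2 in the low tumors, a difference of -0.45 ± 0.12. Zmat3 differed by -0.43 ± 0.11, Rbm38 by -0.49 ± 0.12 and Gtse1 by -0.39 ± 0.09. Gtse1 was lower in 6 of 6 treatments, Rbm38 in 5, and Ccng1 and Zmat3 in 4. These counts include PBS and PS473@CPs, where the pair set a high against a low tumor and the direction was fixed in advance. Of all genes tested, 129 (1.04%) were lower in 6 of 6.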
